A study of Mus musculus with 16 samples.

Results

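Mitosis is run by a small set of genes that dividing cells switch on late in the cell cycle, and 43 of them were followed here across knockout of pyruvate dehydrogenase (PDH) and addition of acetate in mouse Th17 cells. The 43 genes are a fixed list of mitotic cyclins, kinases, checkpoint proteins, kinetochore and spindle components and cytokinesis factors, matched by symbol. All 43 were among the 15571 gene identifiers of the table, and all 43 passed the filter on low counts. The cells were naive CD4 T cells of the spleen and lymph nodes. Their PDH alleles were flanked by loxP sites, and they were driven toward the Th17 fate, a helper T cell type that makes IL-17, over 3 days on plate-bound anti-CD3 with anti-CD28, IL-6, TGFβ and anti-IFNγ. PDH is the mitochondrial enzyme complex that makes acetyl-CoA from pyruvate, and acetate is another source of acetyl-CoA. Sample titles spell the allele PHD and the protocols PDH, and PDH is used here.

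The 16 libraries formed 4 groups of 4. WT untreated cells carried the loxP-flanked alleles without Cre, and KO untreated cells carried them with CD4-Cre, which acts in T cells. WT acetate and KO acetate cells were the same genotypes differentiated in 10 mM sodium acetate. The labels name no group with Cre and unflanked alleles and no sodium control, so Cre and knockout, and sodium and acetate, cannot be told apart. They do not state if replicates came from separate mice or cultures, and p-values therefore measure only the spread between these libraries, which may be technical.

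Entry into mitosis is driven by cyclin-dependent kinase 1 (Cdk1) bound to A- and B-type cyclins. The spindle checkpoint then holds back the anaphase-promoting complex, a ubiquitin ligase, until every chromosome is attached, after which cyclin B and securin are destroyed, sister chromatids part and the cell divides. Transcription of most of these genes peaks in G2 and mitosis under the MYBL2-MuvB complex and FOXM1. It is repressed in resting cells by the DREAM complex, through a promoter element called the CHR. Nearby CCAAT boxes are bound by NF-Y. In bulk RNA a lower level can come from fewer cells in G2 and mitosis or from less RNA of the gene per cell, which cannot be told apart.

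Promoter windows of genes at the ends of the response are shown because the list was defined by function, not by sequence. RefSeq windows (GRCm38.p6) from 250 bases before to 50 bases after the annotated start were found for 36 of the 43 genes. The CHR was searched as TTTGAA or TTCGAA and the CCAAT box as CCAAT, each on both strands, and matches are in capitals below. Ccnb2 (cyclin B2) and Ube2c (the E2 enzyme of the anaphase-promoting complex) had the largest falls in untreated KO cells, Cdc20 (its activator) had the largest fall with acetate, Ndc80 (a kinetochore protein) was higher in untreated KO cells, and Pttg1 (securin) was higher with acetate.
Ccnb2, chr9:70421505-70421804, minus strand: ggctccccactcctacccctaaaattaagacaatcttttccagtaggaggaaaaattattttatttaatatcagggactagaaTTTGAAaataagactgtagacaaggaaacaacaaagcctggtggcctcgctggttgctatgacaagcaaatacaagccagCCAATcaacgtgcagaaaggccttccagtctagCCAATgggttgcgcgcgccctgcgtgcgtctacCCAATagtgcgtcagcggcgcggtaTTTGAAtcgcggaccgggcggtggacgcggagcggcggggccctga
Ube2c, chr2:164769679-164769978, plus strand: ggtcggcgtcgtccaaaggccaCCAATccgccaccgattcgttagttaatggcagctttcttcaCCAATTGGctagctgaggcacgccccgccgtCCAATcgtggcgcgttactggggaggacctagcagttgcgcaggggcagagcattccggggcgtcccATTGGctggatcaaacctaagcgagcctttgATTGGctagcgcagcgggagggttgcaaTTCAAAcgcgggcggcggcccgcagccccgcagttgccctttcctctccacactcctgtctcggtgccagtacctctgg
Cdc20, chr4:118437294-118437593, minus strand: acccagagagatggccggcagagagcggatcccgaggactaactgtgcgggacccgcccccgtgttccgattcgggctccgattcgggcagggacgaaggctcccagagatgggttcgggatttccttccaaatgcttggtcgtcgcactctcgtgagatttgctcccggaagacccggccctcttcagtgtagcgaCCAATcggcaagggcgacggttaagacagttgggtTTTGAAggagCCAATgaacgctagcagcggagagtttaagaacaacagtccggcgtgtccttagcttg
Ndc80, chr17:71526808-71527107, minus strand: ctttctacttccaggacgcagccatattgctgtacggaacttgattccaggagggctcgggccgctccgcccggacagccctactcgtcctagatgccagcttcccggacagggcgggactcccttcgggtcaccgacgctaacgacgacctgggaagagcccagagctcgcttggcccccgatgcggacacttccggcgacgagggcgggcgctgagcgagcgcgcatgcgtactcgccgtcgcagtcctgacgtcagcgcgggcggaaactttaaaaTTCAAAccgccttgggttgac
Pttg1, chr11:43425932-43426231, minus strand: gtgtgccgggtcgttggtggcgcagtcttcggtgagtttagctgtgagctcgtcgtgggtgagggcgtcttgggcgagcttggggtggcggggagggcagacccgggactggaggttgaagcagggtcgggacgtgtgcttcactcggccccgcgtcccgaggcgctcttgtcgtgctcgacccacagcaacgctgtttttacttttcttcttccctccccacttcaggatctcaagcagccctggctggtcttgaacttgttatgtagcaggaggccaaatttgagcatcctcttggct

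The Ccnb2 window held 3 CCAAT boxes, with first bases 87, 54 and 21 bases before the start, and a CHR 4 bases after it; a second CHR lay further upstream. Ube2c held 6 CCAAT matches, of which 2 overlapped on opposite strands, and a CHR 29 bases before the start. Cdc20 held 2 CCAAT boxes and 1 CHR, Ndc80 a CHR alone, and Pttg1 neither. Of the 36 windows, 28 (77.8%) held a CHR, against 17% of 10620 genes of the table with a window. A CHR within 50 bases of the start was found in 25 of 36 (69.4%), against 4.37% of those genes. A CCAAT box was found in 27 of 36 (75%) against 42.8%, and both elements in 24 of 36 (66.7%) against 7.18%. A match is a string of letters and was not tested as a binding site.

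**Figure D1:**
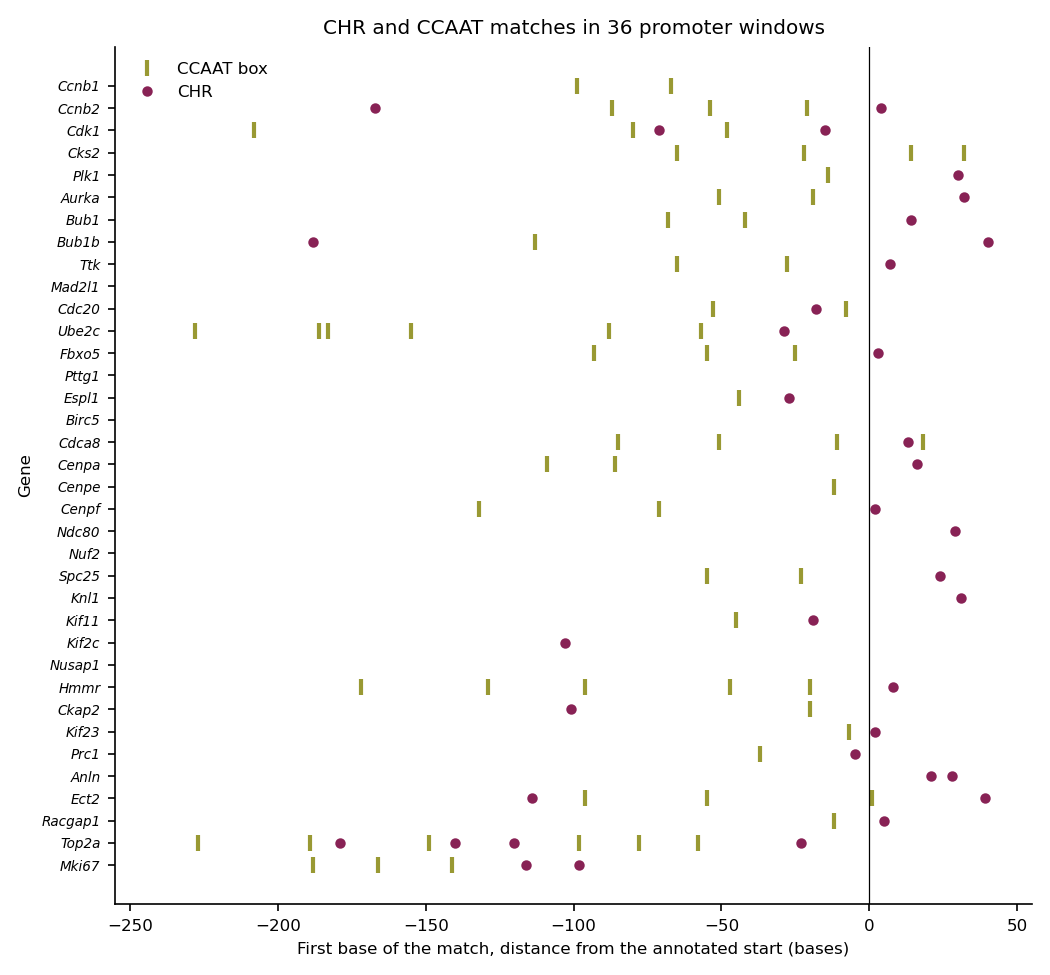
Positions of CHR matches (dots) and CCAAT matches (bars) in the 36 promoter windows; the x axis is the distance of the first base of each match from the annotated start in bases, and each line of the y axis is a gene. The CHR matches nearest the start lie between 103 bases before and 40 bases after it in the 28 windows that hold one.

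In untreated KO against WT cells the median log2 fold change was −0.18 over the 28 genes with a CHR and −0.12 over the 8 without. With acetate in KO cells these medians were −0.12 and −0.14. These are descriptions, and the difference between the sets was not tested.

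Library totals lay between 24.57 and 33.72 M counts. In 4 libraries (WT untreated 1, KO untreated 1 and 2, and KO acetate 2) a single gene with no symbol took over 3% of the counts. Comparisons were also fitted without these 4, and calls lost in that fit are named with their values. Pdha1, a subunit of the PDH complex, stood at 247 ± 12.6, 225 ± 11.5, 259 ± 10.8 and 248 ± 13.0 CPM (a count scaled to the TMM-adjusted library size, mean ± SD, n = 4) in untreated WT, untreated KO, acetate WT and acetate KO cells. Which PDH gene and exon were flanked is not stated, so a count over a whole gene does not check the genotype. All 13 T cell and Th17 markers were in the table, at a summed 2150 to 2709 CPM in untreated and 2733 to 4209 CPM in acetate libraries, which did not overlap. Il17a, the gene of IL-17A, had means of 135, 137, 485 and 868 CPM in untreated WT, untreated KO, acetate WT and acetate KO cells. In the same order Il17f had means of 505, 418, 952 and 1117 CPM, while Cd3e was lower with acetate, at 153, 156, 129 and 116 CPM. At an unadjusted edgeR p under 0.05, acetate in WT cells went with 4 of the 13 lower and 4 higher, where 14% and 14.4% of all genes were. In KO cells 3 were lower and 6 higher, against 25.1% and 25.4% of all genes. The part of these differences in the acetate results was not tested. Summed B cell markers (6 of 7 in the table) reached 6.95 CPM, myeloid markers (5 of 9) 4.38 CPM and NK cell markers (2 of 5) 6.53 CPM at most, and none of 7 erythroid and platelet markers was in the table. Stromal markers (3 of 5 in the table) summed to 13.5 to 27.7 CPM, of which Pecam1, also an endothelial and leukocyte adhesion molecule, made 12.3 to 26.1 CPM, and the 1 of 6 neutrophil and mast cell markers in the table, Cpa3, stood at 0 to 0.466 CPM. Markers of cytotoxic CD8 cells (5 of 7) summed to 11.3 to 19.7 CPM over untreated libraries and 23.3 to 31.7 CPM over acetate libraries, and their part in the results was not tested.

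Without acetate, most of the mitotic genes were lower in KO than in WT cells. Of the 43, 22 fell and 2 rose (edgeR quasi-likelihood test, Benjamini-Hochberg adjusted p under 0.05 over 14985 genes), where 18.6% of all genes fell and 18.0% rose. Their median log2 fold change was −0.18, against 0.01 over all genes tested, and 36 of 43 values were negative. The falls were modest, at most 1.49-fold, and led by cyclin B2, Ube2c, separase, Plk1 and cyclin B1. The libraries of the groups did not overlap for 22 of the genes, against 36.0% of all genes in either direction. Without the 4 libraries with a high-share gene, 13 fell and 1 rose, where 1784 of 15374 genes fell (11.6%) and 1577 rose. The median log2 fold change of the 43 was −0.15 there. Of these 2 groups that fit keeps only KO untreated 3 and 4 and WT untreated 2, 3 and 4.

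Among the cyclins and their kinase, Ccnb2 stood at 92.1, 92.2, 84.5 and 95.8 CPM in WT untreated replicates 1 to 4 and at 60.1, 60.9, 63.3 and 60.7 CPM in KO untreated replicates 1 to 4. Every KO library was below every WT library, a log2 difference of −0.57 (SE 0.0686, adjusted p 5.62e-06). Ccnb1, cyclin B1, which activates Cdk1 at mitotic entry, stood at 208, 199, 199 and 198 CPM in WT libraries and at 149, 128, 146 and 168 CPM in KO libraries. The groups were again apart, and Ccnb1 fell by 0.44 on the log2 scale (SE 0.065, adjusted p 4.3e-05). Counts of both cyclin B genes are uncertain where reads are shared with their annotated pseudogenes. Ccna2, cyclin A2, which acts from S phase to early mitosis, fell from 324 ± 19.3 to 267 ± 15.96 CPM (mean ± SD, n = 4 here and below). Their partner Cdk1 went from 183 ± 7.07 to 168 ± 10.1 CPM and did not pass (adjusted p 0.105), and neither did Cks2, a small Cdk-binding subunit, at log2 0.07.

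Of the mitotic kinases, Plk1, which acts in centrosome maturation, checkpoint control and cytokinesis, stood at 127, 115, 114 and 121 CPM in WT and 85.4, 78.9, 87.6 and 96.4 CPM in KO untreated cells. No library of one group reached the range of the other, and the log2 difference was −0.45 (SE 0.0605, adjusted p 1.67e-05). Aurka, the spindle pole kinase, was at 78.0 ± 3.92 and 72.1 ± 2.67 CPM and did not pass (adjusted p 0.0913). In the spindle checkpoint, Bub1b (BubR1, part of the complex that inhibits Cdc20) fell from 149 ± 6.57 to 115 ± 3.25 CPM and Bub1, a kinetochore kinase, fell by 0.16 on the log2 scale. The Bub1 call was lost without any one of WT untreated 1, WT untreated 4 or KO untreated 1, and without the 4 high-share libraries (log2 −0.14, from −0.16). Mad2l1 (Mad2) and Ttk (Mps1), which start the checkpoint signal, had log2 differences of 0.12 and −0.14 and did not pass.

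At the step that triggers anaphase, Ube2c stood at 203, 226, 214 and 215 CPM in WT and 149, 137, 134 and 163 CPM in KO untreated cells. The lowest WT library lay above the highest KO library, and Ube2c fell by 0.56 on the log2 scale (SE 0.0873, adjusted p 8.6e-05). Espl1, separase, the protease that cuts the cohesin ring, stood at 96.1, 93.7, 95.1 and 91.9 CPM in WT and at 68.3, 67.2, 69.0 and 69.3 CPM in KO untreated cells. Its 4 KO values lay close together and well under the WT values, with a log2 difference of −0.46 (SE 0.0555, adjusted p 5.99e-06). Pttg1, securin, which inhibits separase, went from 19.9 ± 1.52 to 16.4 ± 2.05 CPM (log2 −0.27, adjusted p 0.0392). Its libraries overlapped, and the call was lost without the 4 high-share libraries (log2 −0.21) and without any one of WT untreated 2, WT untreated 3, WT untreated 4, KO untreated 1 or KO untreated 2. Cdc20 and Fbxo5 (Emi1, an inhibitor of the complex) had log2 differences of −0.15 and −0.19 and did not pass.

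The kinetochore couples chromosomes to spindle microtubules. In this comparison it was the one role with genes called in both directions. With acetate in KO cells the checkpoint, anaphase and spindle motor roles also had calls in both directions. Of the 8 kinetochore genes 3 fell and 2 rose here, where 18.6% of all genes fell and 18.0% rose. The falls were in Cenpa (the centromeric histone, log2 −0.33), Cenpe (a kinetochore motor, −0.30) and Cenpf (−0.38). The 2 that rose, Ndc80 and Spc24, belong to the same 4-subunit Ndc80 complex, which binds the microtubule. Ndc80 stood at 75.4, 68.9, 70.5 and 76.9 CPM in WT and 95.4, 84.4, 88.7 and 77.1 CPM in KO untreated cells. Spc24 stood at 45.9, 42.0, 41.7 and 40.6 CPM in WT and at 48.5, 50.6, 50.3 and 53.6 CPM in KO untreated cells. For each gene all KO libraries lay above all WT libraries, with log2 differences of 0.24 (SE 0.0662, adjusted p 0.00737) and 0.26 (SE 0.0607, adjusted p 0.00302). With scaling to library totals alone neither passed (log2 0.18 and 0.20). The other subunits, Nuf2 and Spc25, had log2 differences of −0.14 and −0.04 and did not pass, and nor did the scaffold Knl1 (0.14). Without the 4 high-share libraries Cenpe, Cenpf and Ndc80 did not pass (log2 −0.31, −0.33 and 0.20).

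Of the 6 spindle motors and microtubule proteins 4 fell, by 0.17 to 0.28 on the log2 scale. These were Kif2c (a microtubule depolymerase), Hmmr, Ckap2 and Tpx2, which activates Aurora A. Kif11, the motor that separates the poles, was at 272 ± 13.4 and 269 ± 13.6 CPM and did not pass. Of the 6 midzone and cytokinesis genes 4 fell, with Kif20a, a motor of the midzone, the largest at log2 −0.41 (adjusted p 0.000125), followed by Prc1, Ect2 and Racgap1 at −0.19 to −0.21. In the chromosomal passenger complex Incenp fell (−0.23), while Aurkb (−0.18, adjusted p 0.0502), Birc5 (−0.10) and Cdca8 (−0.08) did not pass. Foxm1, the transcription factor, fell from 104 ± 5.40 to 84.6 ± 3.83 CPM (adjusted p 0.000892). Top2a and Mki67, often used as proliferation markers, were at log2 −0.11 and 0.08 and did not pass. Without the 4 high-share libraries Incenp, Tpx2, Ckap2, Prc1 and Racgap1 did not pass, at log2 −0.15, −0.16, −0.17, −0.21 and −0.14 from −0.23, −0.17, −0.21, −0.21 and −0.19. The Tpx2 call was also lost without WT untreated 4 or without KO untreated 2, and that of Ckap2, whose libraries overlapped, without WT untreated 1.

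**Figure D2:**
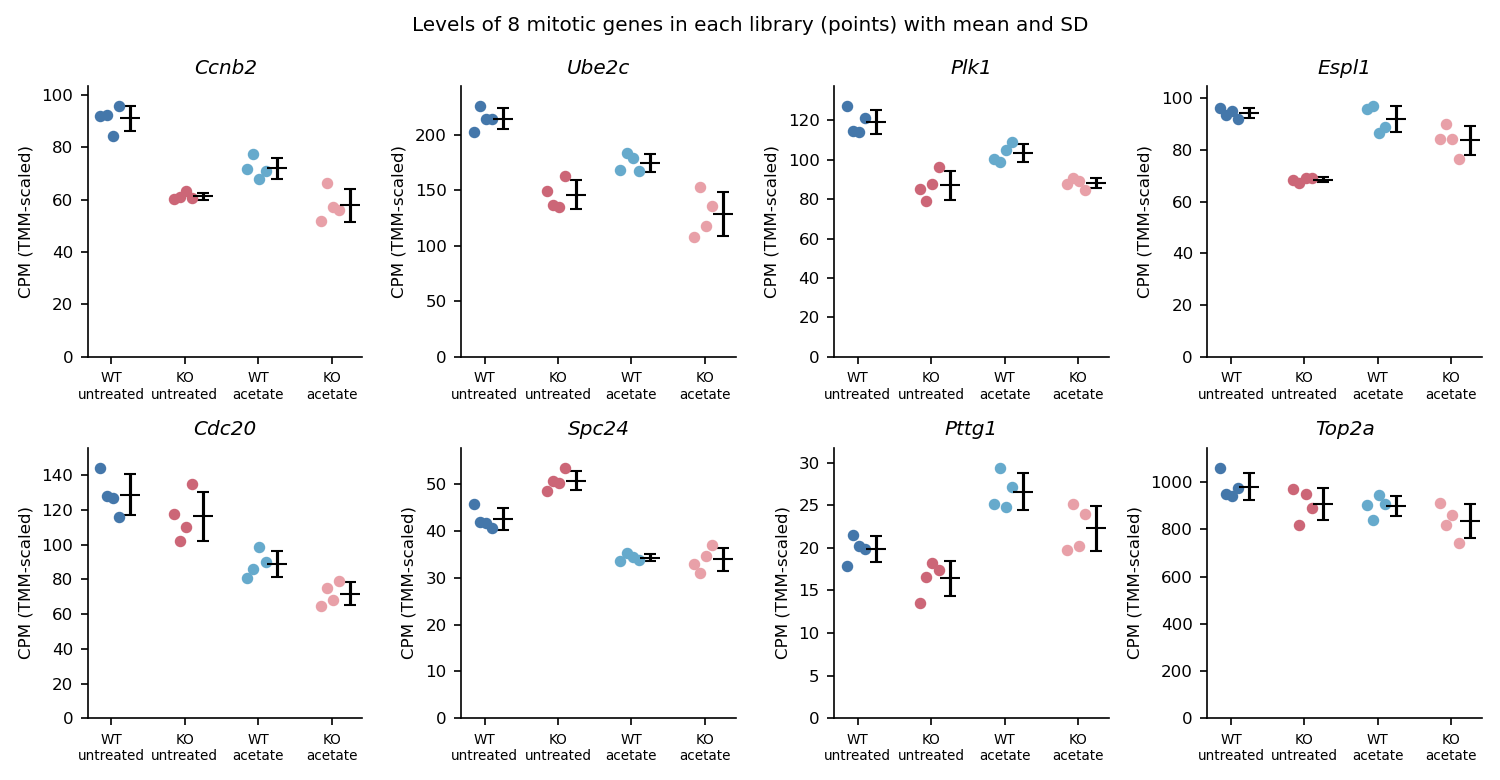
CPM of selected mitotic genes in each library (points; 4 per group) with the group mean and SD; the y axis starts at 0. Ccnb2 and Ube2c are lower in KO than in WT libraries in both media, Cdc20 is lower with acetate in both genotypes, and Espl1 is lowest in KO untreated libraries.

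In acetate most values were again negative, but few genes passed. Of the 43, 3 fell in KO against WT acetate cells, namely Ccnb1, Ccnb2 and Ube2c, and 0 rose with edgeR or with DESeq2, where 0.514% of all genes fell and 0.487% rose with edgeR. With DESeq2 11 of the 43 were lower, where 502 of 15566 genes were lower and 324 higher. The median log2 fold change was −0.11, against 0.01 over all genes, and 39 of 43 values were negative. At an unadjusted p under 0.05, 18 of the 43 were lower and 0 higher, where 9.64% of all genes were lower and 8.78% higher at that level. Libraries did not overlap for 16 of the 43, against 9.36% of all genes in either direction.

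Ccnb2 stood at 71.8, 77.3, 67.8 and 71.1 CPM in WT acetate and 51.7, 66.5, 57.3 and 56.0 CPM in KO acetate libraries, a log2 difference of −0.32 (SE 0.0687, adjusted p 0.0337). Ccnb1 stood at 200.01, 191, 206 and 205 CPM in WT acetate and 157, 159, 157 and 169.6 CPM in KO acetate libraries, a log2 difference of −0.32 (SE 0.0649, adjusted p 0.0278). Ube2c stood at 168, 183, 179 and 167 CPM in WT acetate and 108, 153, 118 and 136 CPM in KO acetate libraries, a log2 difference of −0.44 (SE 0.0873, adjusted p 0.0267). For each of these 3 genes every KO acetate library lay under every WT acetate library. None of the 3 passed when only these 8 libraries were fitted, or without any one of WT acetate 3, WT acetate 4, KO acetate 1 or KO acetate 3. The count was 1 without WT acetate 2, 5 without KO acetate 4, 8 without KO acetate 2, and 7 without KO untreated 4. In the same order 0.163%, 1.55%, 2.78% and 0.883% of all genes fell in these fits. Ccnb2 also did not pass without WT acetate 1, and with library totals alone only Ube2c passed. Genes that did not pass but had negative values in both media included Plk1 (log2 −0.23), Cenpa (−0.24), Kif20a (−0.27) and Ccna2 (−0.25, adjusted p 0.0547).

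With acetate in WT cells 13 of the 43 genes fell and 1 rose, where 7.55% of all genes fell and 7.89% rose. The median log2 fold change was −0.16, against 0.00 over all genes, and 41 of 43 values were negative. Libraries did not overlap for 20 of the genes, against 21.3% of all genes in either direction. The largest fall was in Cdc20, and the rise was in Pttg1. The WT untreated libraries are also the reference of the untreated KO comparison, so values in those comparisons are not independent.

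Cdc20 stood at 144, 128, 127 and 116 CPM in WT untreated and 80.9, 86.0, 98.5 and 90.1 CPM in WT acetate libraries. All acetate values lay under all untreated values, with a log2 difference of −0.53 (SE 0.0897, adjusted p 0.000579). Nusap1, a microtubule-binding spindle protein, went from 194 ± 15.2 to 149 ± 11.5 CPM, and Anln (anillin, of the contractile ring) from 39.9 ± 1.34 to 32.4 ± 0.994 CPM, log2 differences of −0.38 and −0.30. Spc24 (−0.31), Foxm1 (−0.31), Ccnb2 (−0.34), Kif20a (−0.29), Ccna2 (−0.28), Prc1 (−0.27), Bub1 (−0.22) and Tpx2 (−0.19) also fell on the log2 scale. So did Ube2c (−0.30, adjusted p 0.0269), a call lost without any one of WT untreated 2, WT untreated 3, WT untreated 4, WT acetate 1 or WT acetate 4, and Plk1 (−0.21, adjusted p 0.026), lost without any one of WT untreated 1, WT untreated 4, WT acetate 1 or WT acetate 2. Without the 4 high-share libraries Plk1 was at −0.18 and did not pass. The Tpx2 call was lost without WT untreated 4 or without WT acetate 4, and with totals that leave out the high-share gene (log2 −0.17). With library totals alone Plk1, Bub1 and Tpx2 did not pass, at log2 −0.16, −0.18 and −0.15. Ccnb1 was at 201 ± 4.49 and 200.26 ± 6.80 CPM and did not pass (adjusted p 0.977).

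Pttg1 moved the other way. It stood at 17.8, 21.5, 20.3 and 19.9 CPM in WT untreated and 25.2, 29.4, 24.8 and 27.1 CPM in WT acetate libraries, and every acetate value was higher. It rose by 0.42 on the log2 scale (SE 0.0989, adjusted p 0.00733). Its target Espl1 was at 94.2 ± 1.82 and 92.0 ± 5.13 CPM and did not pass (adjusted p 0.744).

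**Figure D3:**
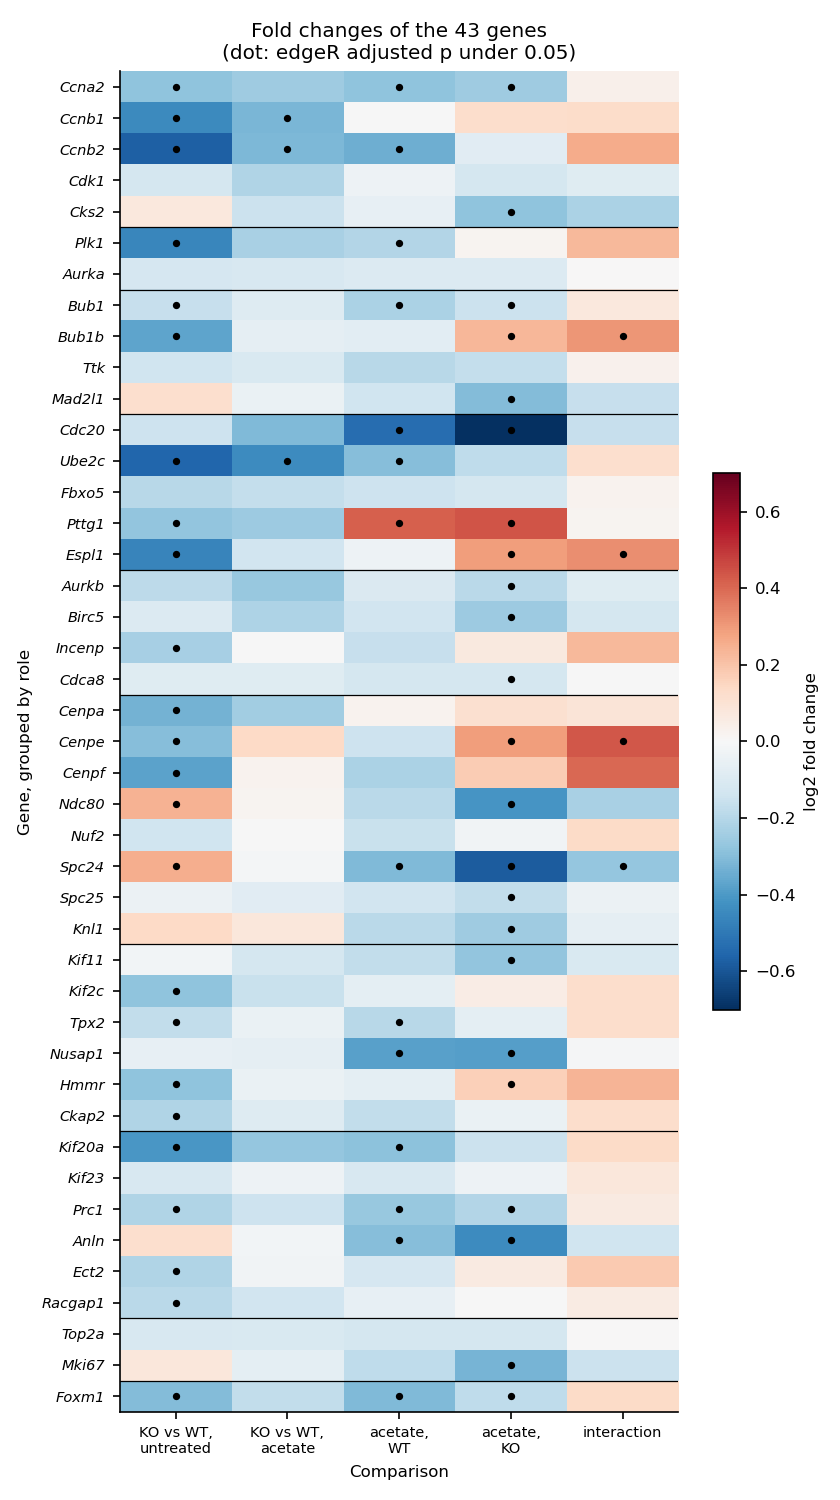
Log2 fold change of each of the 43 genes (lines of the y axis, grouped by role) in each comparison (x axis), as colour from blue (lower) to red (higher), with a dot where the edgeR adjusted p was under 0.05. Most cells are blue in the 4 comparisons of 2 groups, and Pttg1 is red in both acetate comparisons.

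With acetate in KO cells 18 of the 43 genes fell (41.9%) and 5 rose (11.6%), where 21.6% of all genes fell and 22.1% rose. The share that rose was thus under that of all genes. Libraries did not overlap for 15 of the 43, a share close to the 37.7% of all genes. The median log2 fold change was −0.12 against −0.01 over all genes with TMM scaling, while with library totals alone it was −0.02 against 0.09. The split of calls moved with it, to 6 lower and 9 higher with library totals alone and to 10 lower and 10 higher with totals that leave out the high-share gene. Over all genes it moved too, to 2085 lower and 4229 higher of 14985 with library totals alone. With totals that leave out the high-share gene 2342 of 14989 genes were lower and 4436 higher. The 6 falls are a share close to the 13.9% of all genes in that fit. Relative to the median of all genes the list's median was −0.11 under each of the 3 scalings. The called genes named below kept their sign under each of them. The acetate comparisons of the genotypes share no library. 8 genes fell in both, which is 8 of the 13 that fell in WT and 8 of the 18 that fell in KO cells (Ccna2, Bub1, Cdc20, Spc24, Nusap1, Prc1, Anln and Foxm1), and Pttg1 rose in both. As shares, this is 61.5% of the WT list and 44.4% of the KO list. Over all 14985 genes 861 fell in both (5.75%), which is 76.1% of those that fell in WT and 26.6% of those that fell in KO cells. Rises in both were found for 955 of all genes (6.37%), and Pttg1 as 1 of the 43 is a smaller share (2.33%).

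The KO calls of several of these genes depended on the fit. With library totals alone Ccna2, Bub1, Prc1 and Foxm1 did not pass, at log2 −0.14, −0.05, −0.10 and −0.07 from −0.25, −0.15, −0.20 and −0.18. With totals that leave out the high-share gene Bub1, Prc1 and Foxm1 did not pass (−0.05, −0.11 and −0.08), and without the 4 high-share libraries Bub1 and Prc1 did not (−0.17 and −0.19). Bub1 and Foxm1 also did not pass when only the KO libraries were fitted, Bub1 without KO untreated 3 or KO acetate 4, and Foxm1 without any one of KO untreated 4, KO acetate 1 or KO acetate 4. Further genes called lower, Knl1 (−0.25) and Cks2 (−0.28), did not pass without the 4 high-share libraries either (−0.16 and −0.25), nor under either scaling to totals or in the fit of the KO libraries alone. Aurkb and Cdca8 were called lower too, and neither passed under either scaling to totals or in the fit of the KO libraries alone. The Cdca8 call was lost in 12 of the 16 fits that left out 1 library.

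Cdc20 had the largest fall. It stood at 118, 102, 110.5 and 135 CPM in KO untreated and 64.4, 75.2, 68.0 and 79.2 CPM in KO acetate libraries, without overlap (log2 −0.70, SE 0.0903, adjusted p 5.82e-06). Spc24 stood at 33.0, 31.1, 34.7 and 36.9 CPM in KO acetate libraries, under all KO untreated values (log2 −0.58, SE 0.0613, adjusted p 5.22e-07). Its partner Ndc80, at 66.5, 60.5, 64.0 and 68.5 CPM, was likewise under the KO untreated values (log2 −0.41, SE 0.0665, adjusted p 6e-05). In acetate, KO and WT cells had close means of both genes, 33.9 ± 2.50 and 34.3 ± 0.767 CPM for Spc24 and 64.9 ± 3.43 and 64.1 ± 3.02 CPM for Ndc80. Anln (−0.44), Nusap1 (−0.39) and Mad2l1 (−0.30) fell on the log2 scale under each alternative tried. Mki67, a protein of the chromosome surface, fell from 709.8 ± 62.3 to 566 ± 44.5 CPM, and Kif11 from 269 ± 13.6 to 222 ± 13.6 CPM. Both calls, and that of Birc5 (−0.26), were lost with library totals alone.

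The 5 genes that rose with acetate in KO cells were Pttg1, Espl1, Cenpe, Bub1b and Hmmr. This comparison and that of untreated KO with WT cells share the KO untreated libraries. Espl1 reached 84.1, 90.1, 84.2 and 76.5 CPM with acetate, above all KO untreated values (log2 0.29, SE 0.0556, adjusted p 0.000326). Bub1b stood at 116, 118, 117 and 111 CPM in KO untreated and 143, 144, 139 and 117 CPM in KO acetate libraries, which overlapped (log2 0.23, adjusted p 0.00479). Cenpe stood at 141, 123, 139.7 and 117 CPM in KO untreated and 187, 149, 167 and 135 CPM in KO acetate libraries, also with overlap (log2 0.29, adjusted p 0.011), and its call was lost without KO acetate 1 (log2 0.21). The Bub1b call was lost without the 4 high-share libraries (log2 0.22), and so was that of Pttg1 (0.25, from 0.44). Hmmr was close to the threshold (log2 0.17, adjusted p 0.0463) and its call was lost in 12 of the 16 fits that left out 1 library.

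Other genes with large falls in untreated KO cells did not pass with acetate in KO cells. Ccnb2 was at 61.3 ± 1.41 and 57.9 ± 6.22 CPM there, Plk1 at 87.1 ± 7.22 and 88.2 ± 2.57 CPM, and Ube2c at 146 ± 13.1 and 129 ± 19.9 CPM. Ccnb1 was at 148 ± 16.3 and 161 ± 6.06 CPM (log2 0.12, adjusted p 0.141), still under its WT level in either medium.

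The acetate effect differed between genotypes for 4 of the 43 genes, 3 with a higher and 1 with a lower value in KO cells, where 6.37% and 5.54% of all genes did so. The higher values are a share close to that of all genes and the lower one a smaller share. The difference of the log2 changes was 0.44 for Cenpe (SE 0.124, adjusted p 0.0281), 0.33 for Espl1 (SE 0.0783, adjusted p 0.0113), 0.31 for Bub1b (SE 0.0876, adjusted p 0.0281) and −0.27 for Spc24 (SE 0.0864, adjusted p 0.0489). Without the 4 high-share libraries none of the 4 passed, with values of 0.48, 0.27, 0.30 and −0.30. Espl1 passed in each of the 16 fits that left out 1 library. The Bub1b and Cenpe calls were each lost in 7 of these and the Spc24 call in 13.

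Library values of the remaining genes that passed in at least 2 comparisons showed different orders of the groups. Ccna2 stood at 349, 309.5, 308 and 330.2 CPM in untreated WT, 281, 249, 258 and 279 CPM in untreated KO, 259, 247, 282 and 279.6 CPM in acetate WT and 221, 223, 227 and 228 CPM in acetate KO libraries. WT untreated libraries were the highest and KO acetate libraries the lowest, and the groups of each comparison were apart. Bub1 stood at 102, 96.3, 92.7 and 104 CPM in untreated WT, 85.7, 89.0, 91.3 and 86.3 CPM in untreated KO, 86.0, 83.4, 84.1 and 84.8 CPM in acetate WT and 83.2, 79.3, 82.7 and 72.6 CPM in acetate KO libraries. The groups of each comparison were again apart, but the genotypes only narrowly in either medium. In acetate the lowest WT library was at 83.4 CPM and the highest KO library at 83.2 CPM, and that difference did not pass. Prc1 stood at 126, 113, 115 and 127 CPM in untreated WT, 112, 97.9, 103 and 102 CPM in untreated KO, 103, 94.8, 98.9 and 101 CPM in acetate WT and 96.3, 89.8, 92.6 and 81.9 CPM in acetate KO libraries. All WT untreated libraries lay above the others, while the acetate groups overlapped. Foxm1 stood at 112, 105, 101 and 99.7 CPM in untreated WT, 85.7, 80.2, 83.1 and 89.2 CPM in untreated KO, 78.7, 86.3, 85.5 and 86.7 CPM in acetate WT and 70.5, 79.0, 80.9 and 69.3 CPM in acetate KO libraries. The WT untreated libraries were again above all others, and the KO groups overlapped.

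Kif20a stood at 177, 163, 160.4 and 173 CPM in untreated WT, 128, 119.9, 121 and 139.9 CPM in untreated KO, 129, 133, 144 and 146 CPM in acetate WT and 106, 118, 125 and 109 CPM in acetate KO libraries. KO libraries were under WT libraries in either medium, and the KO groups overlapped. Tpx2 stood at 271, 274, 269.7 and 288 CPM in untreated WT, 248, 235, 252 and 245 CPM in untreated KO, 248, 247, 233 and 237 CPM in acetate WT and 245, 236, 239 and 214 CPM in acetate KO libraries. Only WT untreated libraries stood apart. Plk1 stood at 101, 99.1, 105 and 109 CPM in WT acetate and 87.8, 91.0, 89.2 and 84.9 CPM in KO acetate libraries. These groups did not overlap, although the difference did not pass.

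Nusap1 stood at 189, 186, 185 and 217 CPM in untreated WT, 196, 196, 188 and 167 CPM in untreated KO, 158, 159, 143 and 136 CPM in acetate WT and 145, 153, 139 and 133 CPM in acetate KO libraries. Anln stood at 41.4, 38.4, 40.5 and 39.4 CPM in untreated WT, 46.4, 42.97, 44.0 and 40.3 CPM in untreated KO, 31.3, 33.6, 32.7 and 32.1 CPM in acetate WT and 35.1, 30.5, 31.1 and 31.1 CPM in acetate KO libraries. For both genes acetate libraries lay under untreated libraries of the same genotype, and the genotypes overlapped in either medium. Ndc80 stood at 68.4, 61.8, 63.7 and 62.4 CPM and Spc24 at 33.6, 35.3, 34.3 and 33.7 CPM in WT acetate libraries. These values overlapped those of KO acetate libraries for each gene.

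Hmmr stood at 179, 179, 176 and 198 CPM in untreated WT, 166, 157, 146 and 134 CPM in untreated KO, 181, 172, 169 and 177 CPM in acetate WT and 179, 169, 176 and 154 CPM in acetate KO libraries. KO untreated libraries were under both WT groups, and overlapped with the KO acetate libraries. Bub1b stood at 151, 140.2, 149 and 156 CPM in WT untreated and 150.1, 141, 135 and 140.2 CPM in WT acetate libraries. Cenpe stood at 164, 153, 153 and 170.4 CPM in WT untreated and 158, 138, 136 and 148 CPM in WT acetate libraries. For both genes the WT groups overlapped, and all KO untreated libraries lay under all WT untreated ones. Pttg1 stood at 13.5, 16.6, 18.2 and 17.3 CPM in KO untreated and 19.8, 25.2, 20.3 and 23.9 CPM in KO acetate libraries, and Espl1 at 95.7, 97.0, 86.5 and 88.7 CPM in WT acetate libraries. Pttg1 was higher in every KO acetate than in every KO untreated library, and the acetate groups overlapped for both genes.

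Across the groups, 34 of the 43 genes had their highest mean in WT untreated cells and 29 their lowest in KO acetate cells. The mean over the 43 genes of log2(CPM + 0.5) was 6.90 ± 0.046 in WT untreated, 6.72 ± 0.042 in KO untreated, 6.74 ± 0.017 in WT acetate and 6.61 ± 0.021 in KO acetate libraries (SD, n = 4). KO untreated and WT acetate cells overlapped on this measure. The 7 genes that passed in no comparison of 2 groups were Cdk1, Aurka, Ttk, Fbxo5, Nuf2, Kif23 (a midzone motor) and Top2a. Within groups the genes moved together only in part: the correlation of a gene's deviations from its group means with those of the other 42 had a median of 0.35, from −0.56 for Pttg1 to 0.81 for Prc1, over the same 16 libraries.

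**Figure D4:**
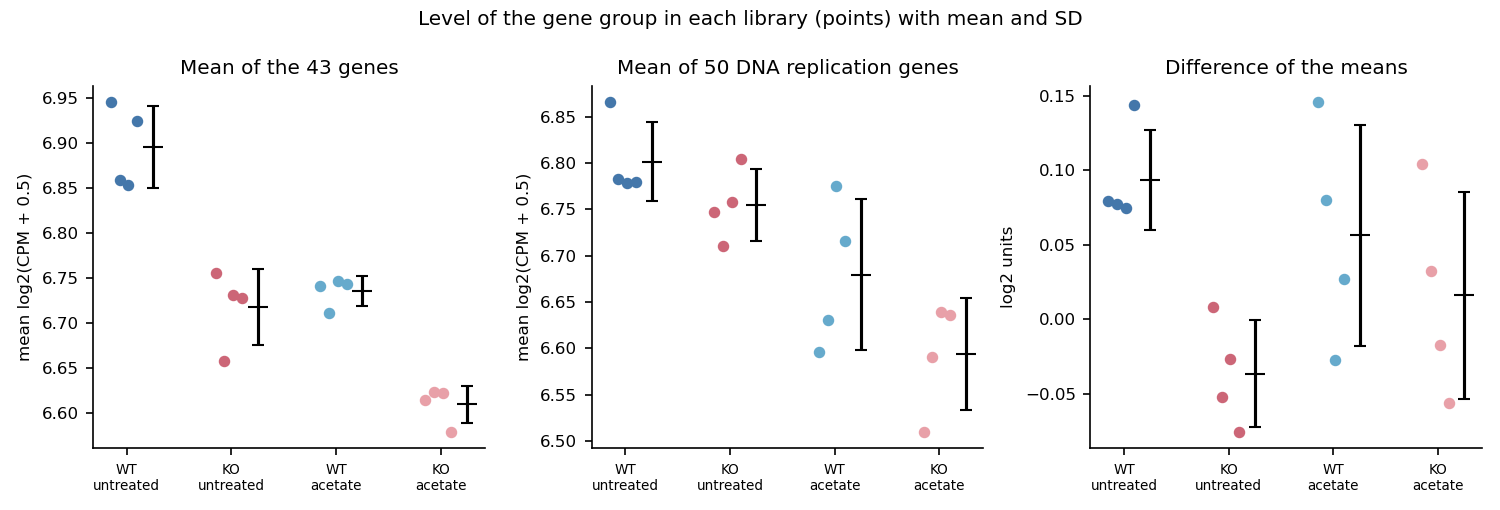
Mean log2(CPM + 0.5) of the 43 mitotic genes and of 50 DNA replication genes, and the difference of the means, in each library (points) with group mean and SD. The mitotic mean is highest in WT untreated and lowest in KO acetate libraries, and the difference lies below 0 in 3 of the 4 KO untreated libraries.

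Lists of related genes were counted in the same fit and are to be read against the shares of all genes, which were 18.6% lower and 18.0% higher in untreated KO cells, 7.55% and 7.89% with acetate in WT cells, and 21.6% and 22.1% with acetate in KO cells. For KO against WT cells in acetate these shares were 0.514% and 0.487%. No list was tested as a set, and nothing is particular to a list from its count. Of 50 DNA replication genes, which act before mitosis, 9 fell and 5 rose in untreated KO cells, 1 fell in KO against WT cells in acetate, 11 fell with acetate in WT cells, and in KO cells acetate went with 26 falls and 3 rises. In untreated KO cells the falls are a share close to that of all genes and the rises a smaller one. Their median log2 fold changes in these comparisons were −0.07, −0.09, −0.12 and −0.17. Within a library, the mean of the mitotic genes minus that of the replication genes was 0.094 ± 0.034, −0.037 ± 0.036, 0.056 ± 0.074 and 0.016 ± 0.069 log2 units in untreated WT, untreated KO, acetate WT and acetate KO cells (SD, n = 4). The 4 KO untreated libraries lay under the 4 WT untreated ones, while the acetate groups overlapped. Taken against the 56 further mitotic genes below, the difference was 0.915 to 0.976 in KO and 1.02 to 1.07 in WT untreated libraries. There the acetate groups were apart too, at 0.995 to 1.01 in KO and 1.05 to 1.09 in WT libraries. Taken against the genes of G1 and S control, the genotypes overlapped in either medium. Of the replication genes Orc1, of the origin recognition complex, fell from 58.7 ± 1.70 to 43.7 ± 2.53 CPM in untreated KO cells, while Cdc7, the kinase that fires origins, rose from 32.8 ± 1.17 to 44.3 ± 2.99 CPM.

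Of 56 further mitotic genes 21 fell and 9 rose in untreated KO cells. In KO against WT cells in acetate 0 fell and 0 rose with edgeR, with 15 lower and 1 higher at an unadjusted p under 0.05 and 6 lower and 0 higher with DESeq2. Over all genes 9.64% were lower and 8.78% higher at that unadjusted level. With DESeq2 502 of 15566 genes (3.22%) were lower and 324 higher. Of the 56, 20 fell with acetate in WT cells, and in KO cells acetate went with 25 falls and 7 rises. Their medians in the same order were −0.09, −0.04, −0.16 and −0.13. Cdc25b, a phosphatase that activates Cdk1, fell from 92.3 ± 1.93 to 62.9 ± 1.00 CPM and the chromosome motor Kif22 from 99.9 ± 2.53 to 71.0 ± 4.72 CPM in untreated KO cells. Cenpm, a centromere protein, fell with acetate in both genotypes, to 13.6 ± 1.37 CPM in WT cells and to 10.5 ± 1.35 CPM in KO cells, from 20.2 ± 2.21 and 23.8 ± 2.30 CPM. Of 14 subunits of the anaphase-promoting complex and its coactivator Fzr1, 4 fell and 4 rose in untreated KO cells, with Anapc5 going up from 324 ± 12.7 to 484 ± 33.2 CPM. In KO cells given acetate 6 of these fell and 3 rose.

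Of 18 cohesin and condensin genes, which hold and compact chromatids, 7 fell and 3 rose in untreated KO cells, and 4 fell with acetate in WT cells. Of 16 genes of the DREAM, MYBL2-MuvB and NF-Y complexes 6 fell and 3 rose in untreated KO cells, where the 3 rises are a share close to that of all genes, and Nfya, the regulatory NF-Y subunit, went from 71.7 ± 1.82 to 94.9 ± 2.33 CPM and was called higher. Of 16 genes of G1 and S control 5 fell in untreated KO cells, with Ccne1 (cyclin E1) falling from 95.5 ± 5.61 to 62.3 ± 9.47 CPM. Of 5 Cdk inhibitors in the table Cdkn2d fell, from 59.3 ± 5.17 to 36.5 ± 1.67 CPM, and Cdkn1c rose, from 0.941 ± 0.195 to 1.71 ± 0.215 CPM. Of 14 tubulin genes 6 fell and 2 rose there. The rises among the cohesin and condensin genes and among the tubulins are also shares close to or under the 18.0% of all genes.

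**Figure D5:**
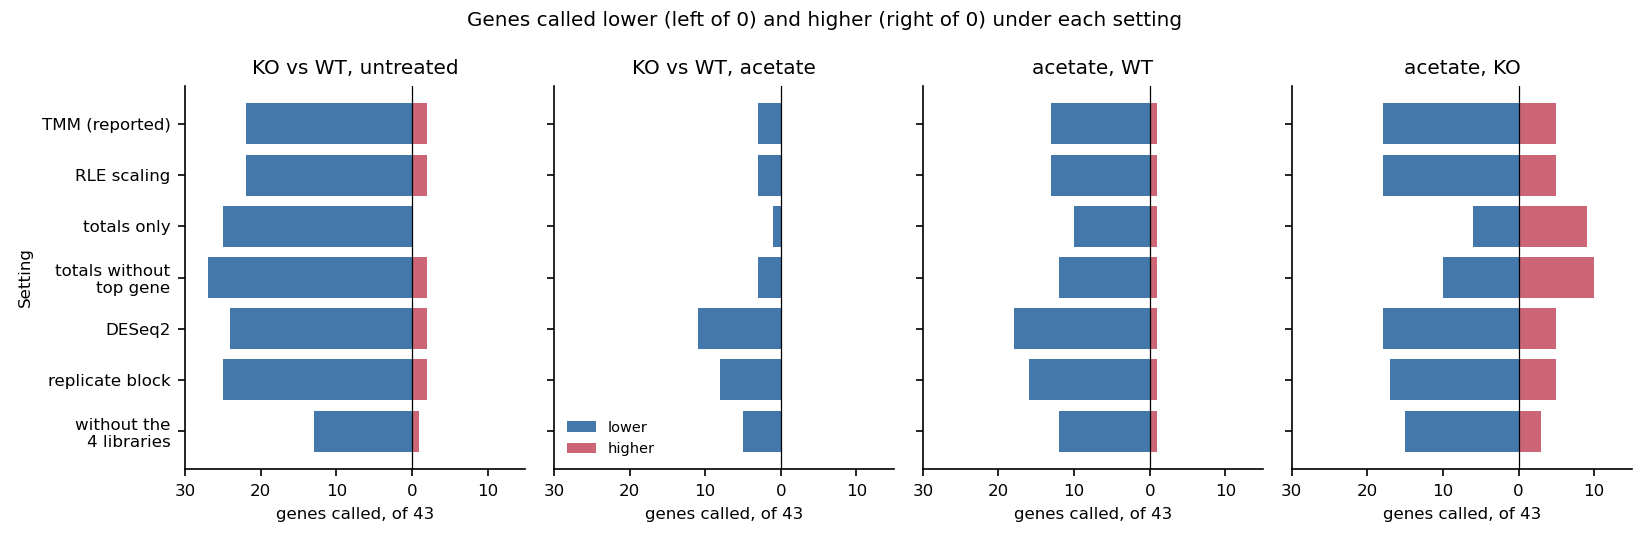
Number of the 43 genes called lower (bars left of 0) and higher (right of 0) in each comparison of 2 groups, by scaling, tool and libraries used. The count of lower genes in untreated KO against WT cells lies between 13 and 27, in fits where 11.6% and 22.0% of all genes are lower. With acetate in KO cells the balance of lower and higher genes moves from 18 and 5 to 6 and 9 with library totals alone, where 2085 and 4229 of all 14985 genes are called.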

How the data were processed

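RNA of mouse Th17 cells was made into 16 stranded mRNA libraries. The table the authors deposited holds estimated counts for each gene, already whole numbers, which were used as they stand. Salmon, DESeq2 and DESeq are named in the submitters' processing notes. The build and the annotation are not given in the sources. Libraries held 24.57 to 33.72 M counts, and each gene in the table had at least 10 counts in at least 3 libraries. Symbols came from a reference name table that matched 15221 of 15571 identifiers, and 350 identifiers without a symbol stayed in the fit.

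Genes were tested with edgeR 4.0.16 in R 4.3.3 (TMM scaling, filterByExpr on group, robust quasi-likelihood F test, Benjamini-Hochberg adjustment over 14985 genes). One fit held all 16 libraries, with no replicate term, and a gene was called at an adjusted p under 0.05. "Rose" and "fell" are used for such calls, and all adjusted p-values are from this test. The SE is the log2 fold change divided by the square root of F. Replicates differed beyond sampling noise in all 24 pairs within groups. The alternatives were other scalings, no filter, DESeq2 1.42.0, a replicate block, fits of only the groups compared, and fits without single libraries or the 4 with a high-share gene. The code was tested on simulated data.

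All 43 genes may be named. Values per library are given for those that pass in at least 2 comparisons of 2 groups or in the interaction, those at the ends of the range, and 1 or 2 per role. Up to 3 genes with the smallest adjusted p in a comparison may be named from each related list. The 43 genes and the related lists were chosen with earlier results of these data known. Promoter windows are from RefSeq (GRCm38.p6), with none found for Ccna2, Aurkb, Incenp, Spc24, Tpx2, Kif20a and Foxm1.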

Additional observations from a re-analysis of the deposited data

Results flagged for a closer look

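The 43 genes and 2 summary measures were examined in each group of 4 libraries for a single library set apart from the others, and 9 of 180 groups had one, where chance gives about 1 in 20. Ccnb1 stood at 207.6 CPM in WT untreated 1, above 198.2 to 199.0 CPM in the others, and at 169.6 CPM in KO acetate 4. Aurkb stood at 111.6 CPM in KO untreated 4, against at most 93.3 CPM in the others. WT untreated 4 was high for Nusap1, at 216.8 CPM, and for Hmmr, at 197.8 CPM. Anln stood at 35.1 CPM in KO acetate 1, and Foxm1 was low, at 78.7 CPM, in WT acetate 1. The mean log2 level of the 43 genes was lowest in WT acetate 2, at 6.71, against 6.74 to 6.75 in the other WT acetate libraries. The mean of the mitotic genes minus that of the replication genes was 0.14 in WT untreated 4, against at most 0.08 in the other WT untreated libraries.

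The acetate effect differed between the genotypes by the interaction test for Bub1b (0.31), Espl1 (0.33), Cenpe (0.44) and Spc24 (−0.27), as log2 differences of KO minus WT. These are 3 higher and 1 lower of 43, where 6.37% of all genes were higher and 5.54% lower, so the first share is close to that of all genes and the second under it. None of the 4 passed under every alternative, and none passed without the 4 high-share libraries.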

How the results depend on the processing

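Of the 68 calls in the 4 comparisons of 2 groups and the interaction, all 68 were kept with RLE scaling and with DESeq2, 67 without a filter, 66 with the replicate block, 58 with totals without the top gene, 48 with library totals alone and 47 without the 4 high-share libraries. The fit of only the groups compared, which has no interaction, kept 54 of 64 calls. No call changed sign under these. Under every alternative, single-library fits included, 13 of 24 calls held in untreated KO against WT cells and 0 of 3 between genotypes in acetate. With acetate 10 of 14 held in WT and 7 of 23 in KO cells, and 0 of 4 held in the interaction. With library totals alone, 0 genes rose in untreated KO cells (median −0.24), 1 fell between genotypes in acetate, acetate in KO cells gave 6 falls and 9 rises (median −0.016), 0 were lower in the interaction (median 0.12), and the median with acetate in WT cells was −0.11. In that fit 1914 of 14985 genes rose in untreated KO cells and 0.334% fell between genotypes in acetate. Over all genes acetate in KO cells gave 2085 falls and 4229 rises, and 442 were lower in the interaction. With totals without the top gene, the medians were −0.22, −0.073, −0.026 and 0.13 in untreated KO against WT cells, KO against WT cells in acetate, acetate in KO cells and the interaction, with 10 lower and 10 higher for acetate in KO cells and 0 lower and 7 higher in the interaction. Of 14989 genes 2342 were lower and 4436 higher for acetate in KO cells there. In the interaction 568 were lower and 1481 higher. Without the 4 high-share libraries, 13 fell and 1 rose in untreated KO cells, 5 fell between genotypes in acetate, 3 rose with acetate in KO cells, and the interaction gave 0 lower and 0 higher. Of 15374 genes in that fit, 2.09% fell between genotypes in acetate and 2509 rose with acetate in KO cells. The interaction gave 464 lower and 546 higher over all genes. DESeq2 gave 11 falls between genotypes in acetate, where 3.22% of all genes were lower, and the fit of only those groups 0, where 3 of 14122 genes were lower. The share of all genes called lower also moved. In untreated KO cells it went from 18.6% to 11.6% without the 4 high-share libraries. With acetate in KO cells it went from 21.6% to 13.9% with library totals alone. Causes of these shifts were not tested.

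Leaving out 1 library at a time gave 19 to 23 falls in untreated KO cells, 0 to 8 between genotypes in acetate, 10 to 14 with acetate in WT cells, 15 to 20 falls and 3 to 6 rises with acetate in KO cells, and 0 to 1 lower and 1 to 4 higher in the interaction. Of all genes, 14.9% to 18.6% fell in untreated KO cells and 0.0458% to 2.78% between genotypes in acetate in those fits. With acetate 4.80% to 7.64% fell in WT and 18.7% to 21.6% in KO cells, where 2888 to 3359 genes rose. In the interaction 3.77% to 5.98% of all genes were lower and 679 to 1084 genes were higher. Replicate numbers did not meet the rule for pairing, a correlation of deviations over 0.1 in every same-number pair of the groups compared: 10 of 24 pairs had one (range −0.13 to 0.34), and in 11 of 24 a library correlated best with its own number, out of the 4 libraries of the other group. Between KO untreated and KO acetate all 4 libraries did so (r 0.097 to 0.24), which is a hint from the data and not part of the design. With the replicate block 8 genes fell between genotypes in acetate, where 1.51% of all genes fell, and 0 were lower in the interaction. The mean of the mitotic genes minus that of a second list, WT acetate minus WT untreated, was −0.038 with the replication list and 0.022 with the further mitotic genes, and KO minus WT untreated was −0.13 with the replication list and −0.073 with the G1 and S list.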
